A study of Ovis aries with 16 samples.

Results

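Immediate early genes are transcribed within minutes of a stimulus, from factors already present in the cell and without new protein synthesis, and their messenger RNAs are mostly short-lived. In the brain FOS and EGR1 are widely used to mark neurons that have recently been active, while JUNB, ZFP36 and CCN1 also respond to cytokines and to mechanical or vascular stress in glia, endothelium and other cells. The hypothalamus, which controls the pituitary and the autonomic response to low cerebral blood flow, is a place where FOS is commonly used for this purpose.

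The measurements below are those of 10 such genes (FOS, JUNB, JUND, EGR1, MYC, BHLHE40, ZFP36, MCL1, RGS2 and CCN1), taken as every array probe whose annotation names one of them. They are 10 of 981 genes named on the array, and 22 of its 15008 distinct probes: 2 genes had 1 probe and 8 had several. The samples were hypothalami of 16 fetal sheep, 4 to a group, one fetus to an array: estradiol with brachiocephalic occlusion (estradiol+BCO), occlusion alone (BCO), estradiol with a sham occlusion (estradiol), and an untreated sham (control). The brachiocephalic artery, which supplies the fetal brain, was closed for 10 min. Estradiol was given at 250 ug per day for 5 days. Tissue was taken 50 min after the closed or sham period ended, in fetuses aged 124 to 128 days when term is at 147 days. All fetuses, controls included, carried chronic catheters and gave blood samples through the study hour, so control values are those of handled animals. The question was how the early transcriptional response stood 1 h after the start of a short loss of flow, and whether estradiol altered it.

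The 75th percentile of the signal was 2021 to 2904 units and 77.27% to 86.41% of probes on an array were well above background. Every level given is a log2 signal relative to that percentile, which compares arrays for 1 probe and does not rank probes against each other. All 22 probes entered the test, which took in 12937 probes in all, and 17 of them were well above background on every array. The arrays lay on 2 slides with 2 arrays of each group on each, and 858 probes (6.63%) differed between slides, among them 1 probe of these genes, the dimmer of the 2 MCL1 probes (1.91 higher on slide 2, limma adjusted p = 0.00114). Of 20 hypothalamic neuropeptide genes used to check the dissection, 13 had a tested probe, whereas none of 9 neuronal or 7 oligodendrocyte marker genes had a named probe, so the neurons themselves could not be followed by general markers. In whole tissue, fewer cells of a type and less RNA per cell cannot be told apart.

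Several probes of these genes overlap, which matters for how many separate measurements stand behind each one. The 60-base sequences below are those of the arrays and are written 5′ to 3′, with capitals marking the run shared with another probe of the same gene. The first and second FOS probes and both CCN1 probes are the same sequence moved by a single base, so each such pair is close to a repeat of 1 measurement. The remaining FOS probe shown is separate.
FOS A_70_P016316: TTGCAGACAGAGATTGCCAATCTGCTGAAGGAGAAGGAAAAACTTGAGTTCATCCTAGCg
FOS A_70_P016317: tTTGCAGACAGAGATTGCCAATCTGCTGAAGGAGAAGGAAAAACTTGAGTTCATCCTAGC
FOS A_70_P001561: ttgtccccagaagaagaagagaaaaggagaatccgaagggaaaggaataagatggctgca
CCN1 A_70_P036181: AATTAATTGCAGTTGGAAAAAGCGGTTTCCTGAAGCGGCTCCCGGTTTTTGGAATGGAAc
CCN1 A_70_P036182: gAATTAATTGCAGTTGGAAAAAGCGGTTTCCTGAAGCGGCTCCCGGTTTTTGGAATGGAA

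The EGR1 and ZFP36 probes are shown because probes of one gene gave unlike differences between groups. EGR1 A_70_P041732 and A_70_P041731 share 22 bases at their ends, and A_70_P023511 was named through its description in the files and shares none with them. The ZFP36 probes come from separate stretches of the same record.
EGR1 A_70_P041732: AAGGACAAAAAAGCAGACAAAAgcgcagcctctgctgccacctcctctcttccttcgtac
EGR1 A_70_P023511: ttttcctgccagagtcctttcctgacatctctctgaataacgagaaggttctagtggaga
EGR1 A_70_P041731: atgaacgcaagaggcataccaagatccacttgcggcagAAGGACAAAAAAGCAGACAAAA
ZFP36 A_70_P030387: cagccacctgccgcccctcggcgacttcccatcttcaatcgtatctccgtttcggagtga
ZFP36 A_70_P030386: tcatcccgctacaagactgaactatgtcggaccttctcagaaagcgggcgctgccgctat

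FOS, the partner of the JUN proteins in the AP-1 transcription factor, had its highest levels in fetuses given both treatments. Its brightest probe, A_70_P026731, stood at 0.60, 0.83, 0.71 and 1.75 in the 4 estradiol+BCO fetuses, against -0.41, -0.40, 0.17 and 0.15 in the 4 BCO fetuses. It stood at 0.49, -0.01, 1.04 and 0.03 in estradiol fetuses, against -0.94, 0.02, 0.41 and 0.08 in controls. All 4 estradiol+BCO values were therefore above all 4 BCO values, while the values of every other pair of groups that differ by 1 treatment overlapped. The group means were 0.97 ± 0.53 in estradiol+BCO, -0.12 ± 0.33 in BCO, 0.39 ± 0.49 in estradiol and -0.11 ± 0.58 in control (SD, n = 4 each).

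Occlusion without estradiol left the FOS mean within its own error of control, with a log2 fold change of -0.02 ± 0.32 (SE; limma adjusted p = 1.00 over all probes tested). The 95% interval of that difference ran from -0.71 to 0.68, which is as closely as 4 fetuses a group limit it. In estradiol-treated fetuses the occluded ones were higher by 0.59 ± 0.32 on the same scale, which did not pass the test (adjusted p = 0.704). Estradiol+BCO exceeded BCO by 1.10 ± 0.32, a ratio of 2.14, and this did not pass either (adjusted p = 0.295). Among sham-occluded fetuses, estradiol exceeded control by 0.49 ± 0.32, which also did not pass. The interaction, which asks whether occlusion acted differently with and without estradiol, was 0.60 ± 0.46 (adjusted p = 0.867).

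On all 4 FOS probes the estradiol+BCO mean was the highest of the 4 groups. A_70_P016317 stood between -3.69 and -2.54 in estradiol+BCO fetuses, against -4.75 to -3.73 in BCO fetuses, and again did not overlap. The probe A_70_P016316, its neighbour by a single base, overlapped by 1 estradiol+BCO fetus (-3.71 to -2.61 in estradiol+BCO, against -4.57 to -3.60 in BCO). The separate probe A_70_P001561 was higher in estradiol+BCO than in BCO by 0.90 ± 0.38 (adjusted p = 0.473). Among all 22 probes, 3 had an unadjusted p under 0.05 for estradiol+BCO against BCO, all of them FOS probes, where 9.45% of all probes tested had one. Of the 22, 2 did not overlap between these groups in the higher direction, against 1.67% of all probes, and 0 in the lower, against 2.58%. Within slides the brightest FOS probe differed between estradiol+BCO and BCO by 1.12 on slide 1 and 1.07 on slide 2. In the comparison of BCO with control it differed by 0.05 on slide 1 and -0.09 on slide 2.

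**Figure D1:**
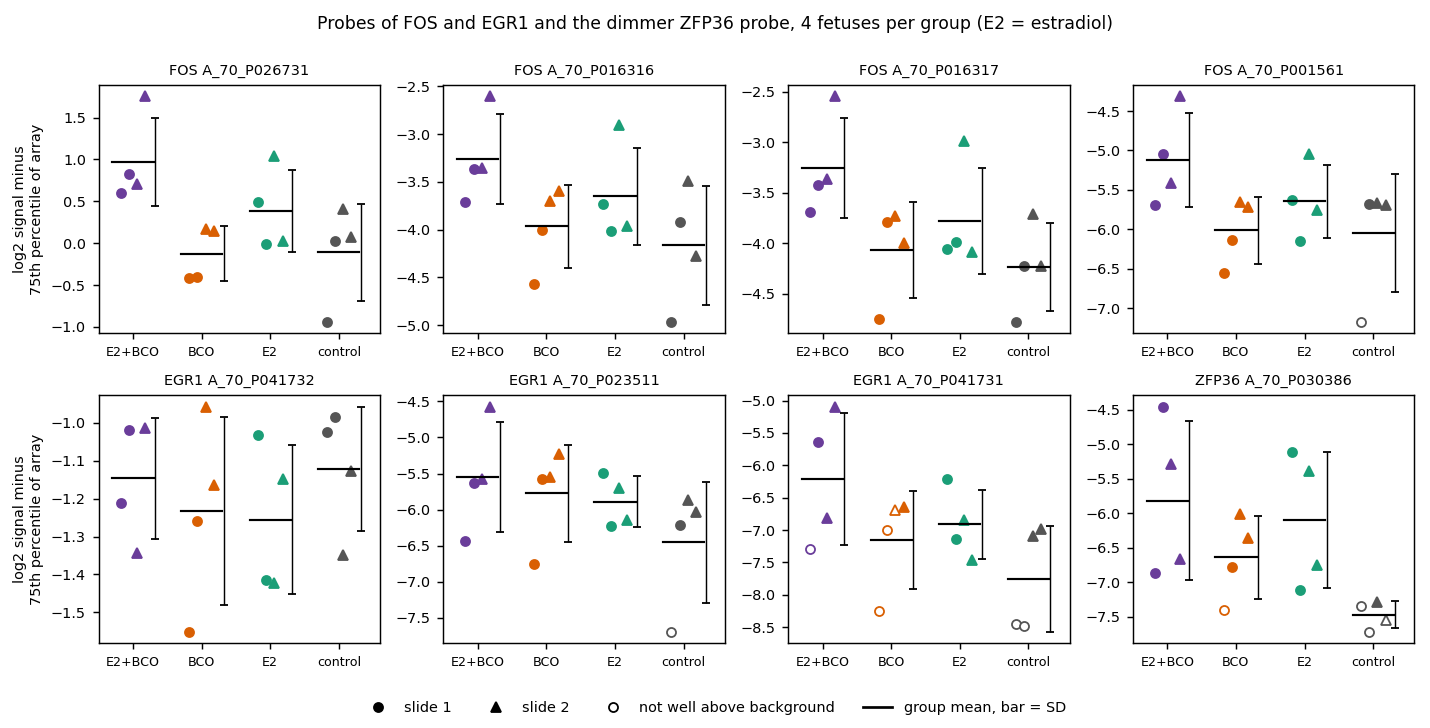
Level on each array (log2 signal relative to its 75th percentile) of the 4 FOS probes, the 3 EGR1 probes and the dimmer ZFP36 probe in the 4 groups; lines are group means, bars SD, circles slide 1 and triangles slide 2, and open symbols were not well above background. In the first FOS panel the 4 estradiol+BCO arrays (0.60 to 1.75) lie above the 4 BCO arrays (-0.41 to 0.17), while the 2 dimmer EGR1 probes have a wider spread than the brightest one.

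JUNB, the JUN family member that often restrains the activity of JUN, was narrowly grouped in controls and widely spread in every other group. Its brighter probe stood at -3.28, -1.57, -1.67 and -2.86 in estradiol+BCO fetuses, against -2.08, -3.36, -2.58 and -3.12 in estradiol fetuses. It stood at -3.53, -2.79, -2.03 and -2.09 in BCO fetuses, against -3.29, -3.31, -3.46 and -3.36 in controls. The SD was 0.86 in estradiol+BCO, 0.71 in BCO and 0.57 in estradiol, but 0.07 in control. All 4 estradiol+BCO fetuses lay above every control, the lowest of them narrowly (-3.28 against a highest control of -3.29). In both the BCO group and the estradiol group 3 of 4 did, so such values were not limited to occluded fetuses, and the lowest BCO fetus (-3.53) was below all controls.

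The JUNB mean was higher by 0.74 ± 0.41 in BCO than in control (limma adjusted p = 0.772) and by 0.44 ± 0.41 in estradiol+BCO than in estradiol (adjusted p = 0.85). Neither passed the test, nor did estradiol minus control, at 0.57 ± 0.41. Averaged over both estradiol states the occluded fetuses were higher by 0.59 ± 0.29 (adjusted p = 0.671), with a 95% interval from -0.03 to 1.21. The second probe, moved by a single base, gave 0.65 ± 0.26 for the same average (adjusted p = 0.601). The difference between BCO and control was uneven over slides, at 0.14 on slide 1 and 1.35 on slide 2, since both BCO fetuses on slide 2 were high.

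JUND, the AP-1 subunit that is present in most resting cells, was close in all groups. Its mean was 0.10 ± 0.22 in estradiol+BCO, 0.24 ± 0.44 in BCO, 0.30 ± 0.09 in estradiol and 0.12 ± 0.17 in control (SD, n = 4 each). BCO minus control was 0.11 ± 0.18 and estradiol+BCO minus estradiol was -0.20 ± 0.18 (adjusted p = 0.98 and 0.842). A single BCO fetus at -0.40 set the wide spread of that group. JUN itself, the remaining classical partner of FOS, belongs to the list of other early genes and differed by -0.11 ± 0.13 in BCO against control (adjusted p = 0.955).

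EGR1, a zinc-finger transcription factor induced by synaptic activity and growth factors, gave no single answer over its 3 probes. The brightest, A_70_P041732, stood at -1.21, -1.02, -1.34 and -1.01 in estradiol+BCO fetuses, at -1.55, -1.26, -0.96 and -1.16 in BCO fetuses, at -1.03, -1.42, -1.42 and -1.15 in estradiol fetuses and at -1.02, -0.98, -1.35 and -1.13 in controls. These 4 ranges nearly coincide, and BCO minus control was -0.11 ± 0.14 (adjusted p = 0.962). The separate probe A_70_P023511 stood at -6.43, -5.62, -5.58 and -4.57 in estradiol+BCO fetuses, at -6.75, -5.57, -5.54 and -5.23 in BCO fetuses, at -5.50, -6.23, -5.69 and -6.15 in estradiol fetuses and at -7.69, -6.22, -5.87 and -6.03 in controls. In each occluded group 3 of 4 fetuses were above every control, but so were the sham-occluded estradiol fetuses at -5.50 and -5.69. BCO minus control was 0.68 ± 0.45 (limma adjusted p = 0.822). Over 28 settings this difference ran from 0.20 to 1.01, and the control at -7.69 was not well above background. Probe A_70_P041731 differed by 0.60 ± 0.52 in the same direction (adjusted p = 0.902). It was well above background on 3 estradiol+BCO, 1 BCO, 4 estradiol and 2 control arrays only, and with normexp background correction its difference was 0.06.

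The 2 dimmer EGR1 probes were correlated over arrays, and neither correlation of the brightest probe with them passed the test. With group means removed, the dimmer pair had Pearson's r = 0.83 and Spearman's rho = 0.79 over 16 arrays (permutation p = 0.00022, adjusted p = 0.000559 over 17 same-gene probe pairs). The brightest probe had r = 0.28 with A_70_P023511 and r = 0.39 with A_70_P041731 (permutation test, adjusted p = 0.328 and 0.193). These differed between slides, at 0.74 and 0.88 within slide 1 and 0.18 and 0.43 within slide 2, where the dimmer pair had 0.70 within slide 1 and 0.94 within slide 2. Here and below, r within a slide rests on 8 arrays, 2 to a group, with group means removed, and is imprecise. Of the 17 pairs 14 passed by r, and the remaining one that did not was the MCL1 pair (r = 0.35, adjusted p = 0.238). The ZFP36 pair passed by r (0.75, adjusted p = 0.0119 by permutation) but not by rank (adjusted p = 0.0804 for rho). Its r was 0.91 within slide 1 and -0.44 within slide 2.

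MYC, the growth-promoting transcription factor, and BHLHE40, a repressor tied to the circadian clock and to low oxygen, were close in all groups. The brighter MYC probe had a mean of -0.06 ± 0.17 in estradiol+BCO, 0.09 ± 0.27 in BCO, 0.15 ± 0.15 in estradiol and 0.14 ± 0.13 in control. BCO minus control was -0.05 ± 0.14, with a 95% interval from -0.34 to 0.25, and estradiol+BCO minus estradiol was -0.21 ± 0.14 (adjusted p = 0.999 and 0.744). BHLHE40 had a mean of -4.43 ± 0.21 in estradiol+BCO, -4.50 ± 0.21 in BCO, -4.36 ± 0.09 in estradiol and -4.57 ± 0.14 in control. Its occlusion differences were 0.07 ± 0.13 for BCO minus control and -0.07 ± 0.13 for estradiol+BCO minus estradiol (adjusted p = 0.988 and 0.96). For these genes and JUND the 95% intervals of both occlusion differences lay within 0.60 of 0 on the log2 scale.

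ZFP36 (tristetraprolin) binds AU-rich elements and speeds the decay of cytokine and early gene messengers, and its probes also parted. The brighter, A_70_P030387, stood at -0.83, 0.38, -0.24 and -0.21 in estradiol+BCO fetuses, at -0.84, -0.21, -0.27 and -0.22 in BCO fetuses, at -0.05, -0.62, -0.40 and -0.36 in estradiol fetuses and at -0.40, -0.21, -0.51 and -0.34 in controls. BCO minus control was -0.02 ± 0.22 (adjusted p = 1.00). The dimmer, A_70_P030386, stood at -6.87, -4.45, -5.28 and -6.66 in estradiol+BCO fetuses, at -7.40, -6.78, -6.00 and -6.36 in BCO fetuses, at -5.11, -7.11, -5.39 and -6.75 in estradiol fetuses and at -7.34, -7.72, -7.28 and -7.54 in controls. All 4 estradiol fetuses were above all 4 controls on this probe, by a mean of 1.38 ± 0.54 that did not pass the test (adjusted p = 1.00), and it was well above background in 1 control only. It was the 1 probe of 22 that did not overlap in that direction, against 1.66% of all probes (0 in the lower direction, against 1.46%), and the 1 with an unadjusted p under 0.05, against 3.28%. With normexp background correction the difference was 0.52.

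MCL1, a short-lived member of the BCL2 family that protects cells from apoptosis, had a higher mean in occluded fetuses with and without estradiol, without passing the test. Its brighter probe stood at -1.08, -1.50, -1.28 and -1.50 in estradiol+BCO fetuses, against -1.47, -1.58, -1.65 and -1.50 in estradiol fetuses. It stood at -1.22, -1.44, -1.11 and -1.37 in BCO fetuses, against -1.78, -1.54, -1.50 and -1.63 in controls. All BCO fetuses were above all controls, and MCL1 was the 1 probe of 22 to separate in this way, where 2.26% of all probes did (0 in the lower direction, against 1.77%). In estradiol+BCO against estradiol 0 of 22 separated in either direction, against 2.15% higher and 2.86% lower. BCO minus control was 0.33 ± 0.11, a ratio of 1.25, and did not pass the test (adjusted p = 0.524). It was 0.33 on slide 1 and 0.33 on slide 2.

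Averaged over both estradiol states, MCL1 was higher by 0.27 ± 0.08 in occluded fetuses (adjusted p = 0.478), which placed it 112th by p of 12937 probes. Estradiol+BCO minus estradiol was 0.21 ± 0.11 (adjusted p = 0.689), at 0.23 on slide 1 and 0.19 on slide 2. Over 28 alternative settings the average ran from 0.23 to 0.30 and never passed the test. The dimmer MCL1 probe was well above background on 8 of 16 arrays, differed between slides as given above, and had a BCO minus control difference of 0.35 ± 0.83.

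RGS2, which shortens signalling through Gq-coupled receptors, had group means of 0.74 ± 0.25 in estradiol+BCO, 0.61 ± 0.52 in BCO, 0.70 ± 0.20 in estradiol and 0.66 ± 0.21 in control on its brightest probe. BCO minus control was -0.05 ± 0.22 (adjusted p = 0.999). The 2 BCO fetuses at its extremes, 1.26 and 0.04, span the values of all other fetuses. Its remaining probes, which share 20 bases, differed by -0.28 ± 0.19 and -0.32 ± 0.21 in estradiol+BCO against estradiol (adjusted p = 0.754 for both).

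CCN1, a secreted matrix protein of vessels and fibroblasts, resembled JUNB. It stood at -3.74, -2.33, -2.48 and -3.17 in estradiol+BCO fetuses, against -3.08, -3.95, -3.39 and -3.35 in estradiol fetuses. It stood at -4.32, -3.80, -1.79 and -2.53 in BCO fetuses, against -3.87, -3.54, -3.96 and -3.67 in controls. Both BCO fetuses on slide 2 were above every control and both on slide 1 were not. BCO minus control was 0.65 ± 0.46 (adjusted p = 0.837), made up of -0.36 on slide 1 and 1.66 on slide 2. On brightest probes 5 of the 10 genes had a higher mean in BCO than in control, but 8 did without BCO replicate 1, which had the lowest CCN1 of all arrays, and 8 did without control replicate 2.

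**Figure D2:**
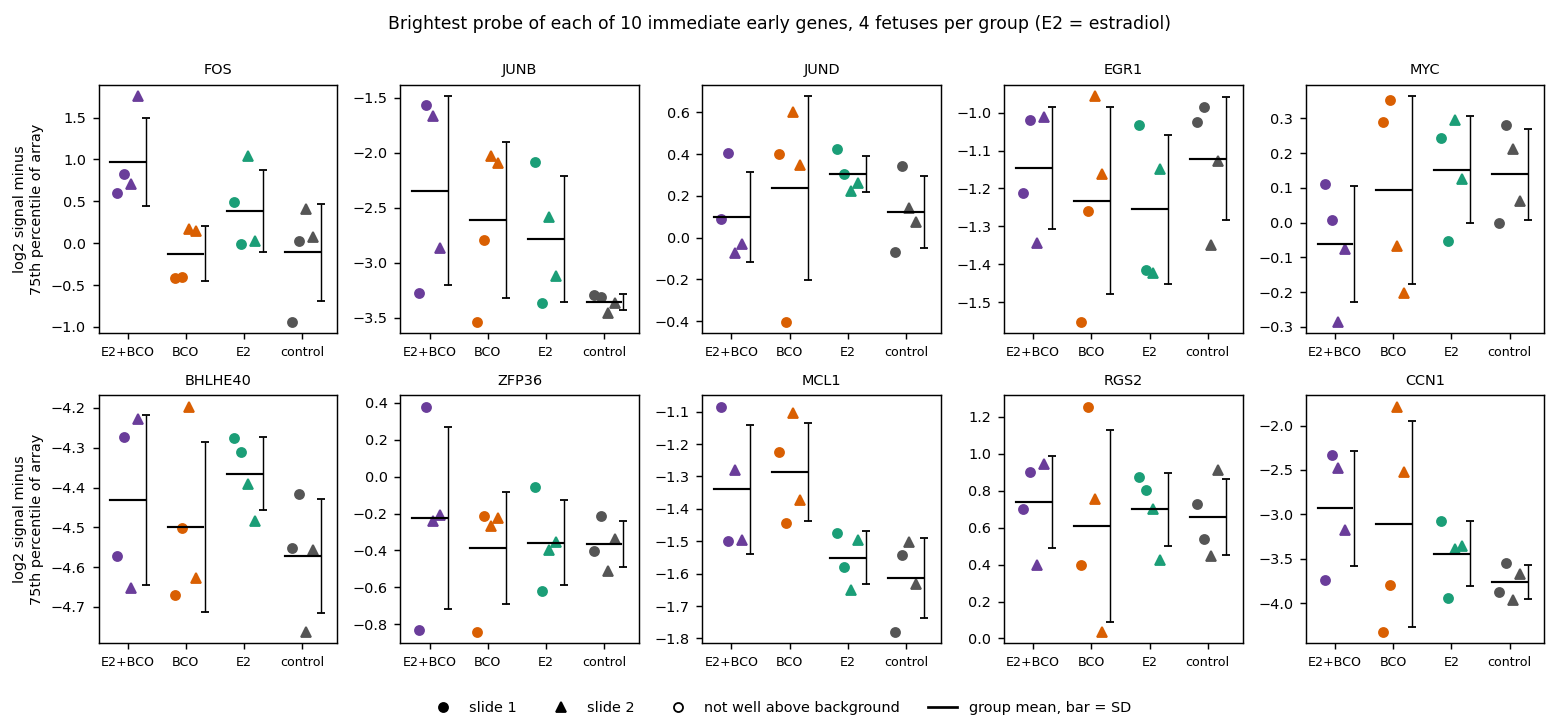
Level on each array (log2 signal relative to its 75th percentile) of the brightest probe of each gene, 4 fetuses in each of estradiol+BCO, BCO, estradiol and control (E2 is estradiol; lines are means, bars SD, circles slide 1, triangles slide 2; the vertical scale differs between panels). The 4 MCL1 values of BCO (-1.44 to -1.11) lie above the 4 of control (-1.78 to -1.50), and JUNB has an SD of 0.07 in control against 0.71 in BCO.

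Taking all 10 genes, none passed an adjusted p of 0.05 by limma in any of 6 comparisons. In BCO against control 0 of 22 probes passed, where 0% of all 12937 did, and 1 had an unadjusted p under 0.05, where 7.17% did. In estradiol+BCO against estradiol 0 of 22 passed, where 0.00773% of all did, and 0 had an unadjusted p under 0.05, where 7.73% did. For occlusion averaged over estradiol 0 passed (0% of all) and 2 had an unadjusted p under 0.05, 1 of MCL1 and 1 of JUNB, where 7.6% of all probes did. For the interaction 0 passed (0.00773% of all) and 0 had an unadjusted p under 0.05 (7.21% of all), and none passed in the 2 estradiol comparisons, where 0% of all probes did. For an unadjusted p under 0.05 the members' share was below that of the whole array in BCO against control (4.55%), in estradiol+BCO against estradiol and in the interaction. It was above it for the average (9.09%), for estradiol against control (4.55%) and for estradiol+BCO against BCO (13.6%). These last shares rest on 2, 1 and 3 probes of 22, and the 3 are all FOS probes. Counts this small do not set the members apart from the whole array in either direction.

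Of the 22 probes 14 had a higher mean in BCO than in control (median log2 fold change 0.14), where 51.9% of all probes did (median 0.01), and 16 in estradiol+BCO than in estradiol (median 0.31), where 48.4% did. For occlusion averaged over estradiol 15 were above 0 (48.8% of all), for the interaction 9 (49.2%), for estradiol against control 19 (48.6%) and for estradiol+BCO against BCO 15 (46.5%). Overlapping probes of a gene are counted singly here. By brightest probe, 5 of 10 genes were higher in BCO than in control (median 0.03) and 7 of 10 in estradiol+BCO than in estradiol (median 0.12). With each gene's probes averaged in place of the brightest, the counts were 8 (median 0.23) and 6 (median 0.29). The comparisons of estradiol+BCO with estradiol and with BCO share the estradiol+BCO fetuses, and those of BCO with control and estradiol+BCO with BCO share the BCO fetuses.

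**Figure D3:**
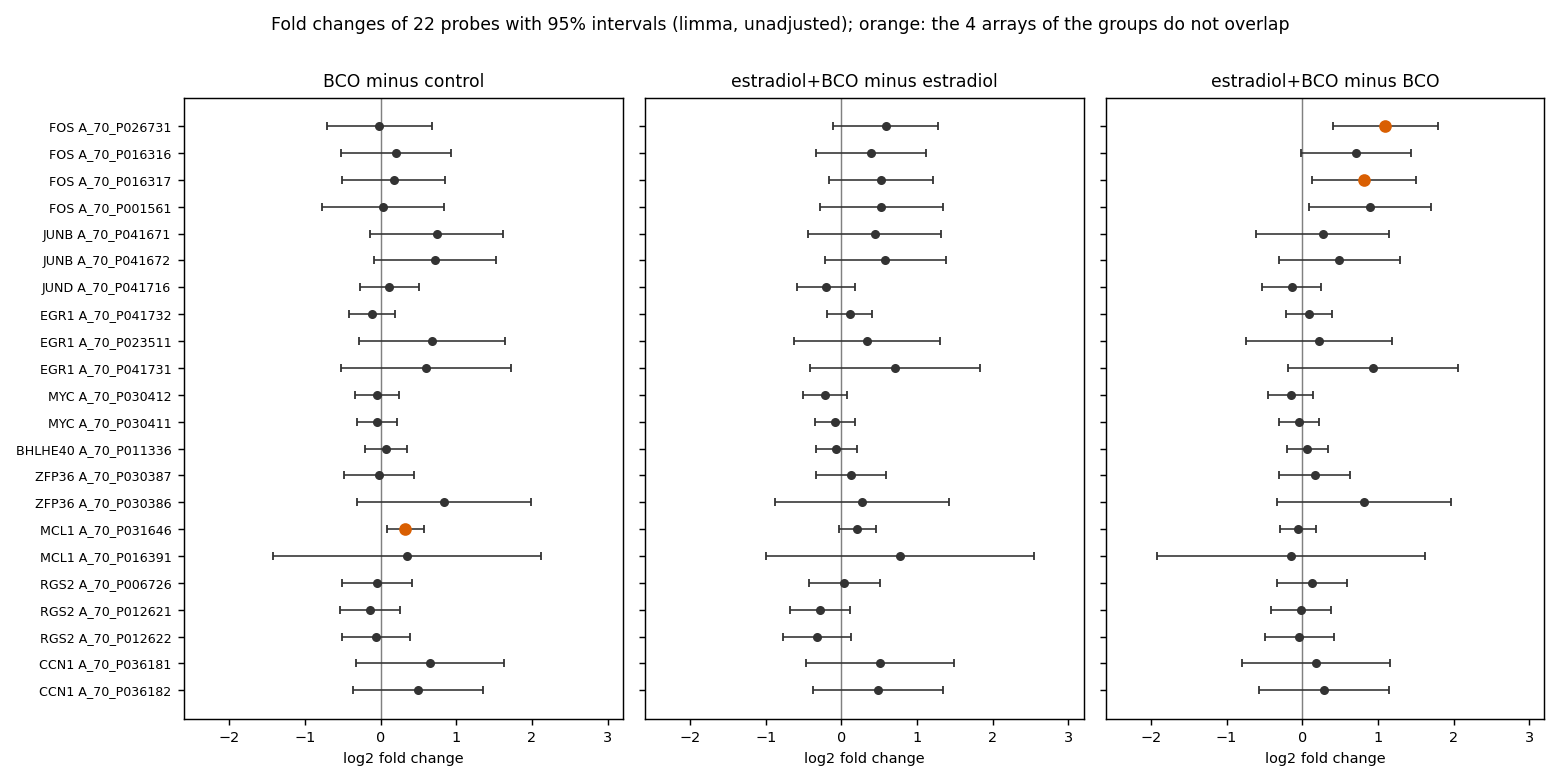
Log2 fold changes of the 22 probes (points) with 95% intervals (bars, limma, not adjusted) for BCO minus control, estradiol+BCO minus estradiol and estradiol+BCO minus BCO; orange points mark probes whose 4 and 4 arrays do not overlap. The MCL1 probe A_70_P031646 (0.33) and 2 FOS probes (1.10 and 0.81) are so marked.

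The spread among fetuses was examined with group means removed. This takes out differences between group means but not differences in spread, and since JUNB varied little among controls, its correlations rest mostly on the treated arrays. Over 45 pairs of genes, each by its brightest probe, 1 passed an adjusted p of 0.05 by a permutation test of 16 arrays within groups: JUNB with CCN1. Their Pearson r was 0.87 (permutation p = 0.00036, adjusted p = 0.0162) and their Spearman rho 0.87 (adjusted p = 0.0448). Without the 2 arrays farthest from the median of JUNB r was 0.86, and it was 0.98 within slide 1 and 0.64 within slide 2. The 5 arrays with the highest JUNB were also the 5 with the highest CCN1. They came from 2 estradiol+BCO, 2 BCO and 1 estradiol fetuses, so 1 of them had no occlusion.

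EGR1 and BHLHE40 had r = 0.74 (permutation p = 0.00595, adjusted p = 0.0669) and rho = 0.83 (adjusted p = 0.0448), with 0.65 within slide 1 and 0.73 within slide 2. JUNB and ZFP36 had r = 0.81 (permutation p = 0.00233, adjusted p = 0.0524), but 0.97 within slide 1 and -0.20 within slide 2. With 8 arrays to a slide, 2 to a group, and group means removed, r within a slide cannot show whether the relation held there. FOS had no partner that passed among the 9 other genes on their brightest probes.

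**Figure D4:**
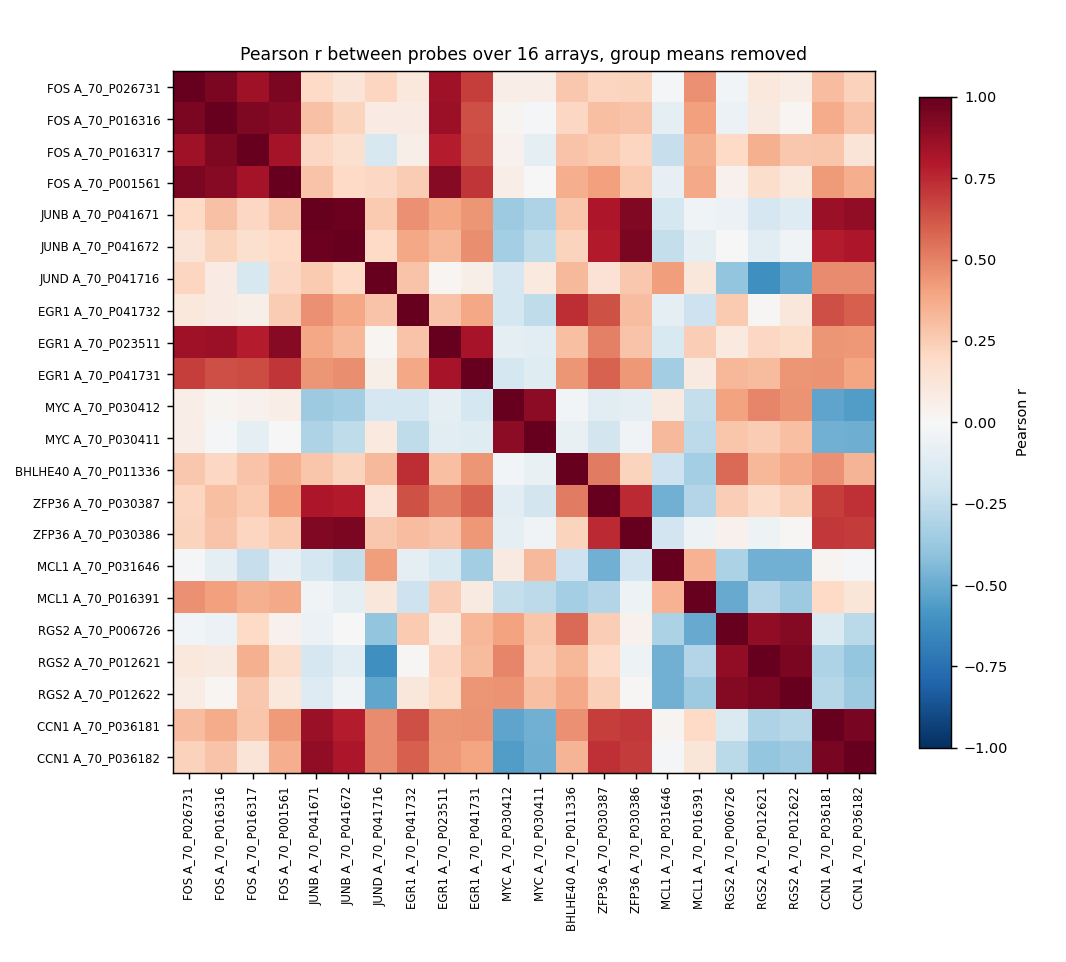
Pearson's r between each pair of the 22 probes over 16 arrays after removal of group means (colour scale from -1 to 1). The FOS probes form a block with the 2 dimmer EGR1 probes, and the JUNB, CCN1 and ZFP36 probes form another.

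The dimmer probes were then set against the brightest FOS and JUNB probes, a step chosen after the values were seen, in 16 pairs of which 4 passed by r. EGR1 A_70_P023511 followed FOS with r = 0.84 and rho = 0.85 (permutation p = 0.00053, adjusted p = 0.00384), with 0.82 and 0.90 within slides 1 and 2 and 0.72 without the 2 farthest arrays. Without control replicate 1, the lowest array for both probes, r was 0.76. EGR1 A_70_P041731 followed FOS with r = 0.69 and rho = 0.66 (permutation p = 0.00465, adjusted p = 0.0186 for r), with 0.33 and 0.87 within slides. By rank this pair did not pass (permutation test, adjusted p = 0.0505 for rho). ZFP36 A_70_P030386 followed JUNB with r = 0.93 and rho = 0.94 (permutation p = 0.00026, adjusted p = 0.00384), with 0.98 and 0.91 within slides and 0.91 without the 2 farthest arrays. The fourth pair was the second CCN1 probe with JUNB (r = 0.89, rho = 0.84, adjusted p = 0.00384 by permutation, 0.94 and 0.68 within slides). This pair repeats the JUNB and CCN1 result above, since the CCN1 probes differ by a shift of a single base, and is no separate finding. With normexp background correction these 4 had r = 0.70, 0.52, 0.73 and 0.90, all still positive.

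FOS and JUNB themselves were not closely related over the 16 arrays. Their levels had r = 0.39, and 2 of the 5 arrays highest for JUNB were among the 5 highest for FOS. With group means removed r was 0.20 (permutation p = 0.526, adjusted p = 0.81). The estradiol+BCO fetus with the highest FOS (1.75) had a JUNB of -2.86, while the BCO fetuses with high JUNB (-2.03 and -2.09) had FOS at 0.17 and 0.15.

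**Figure D5:**
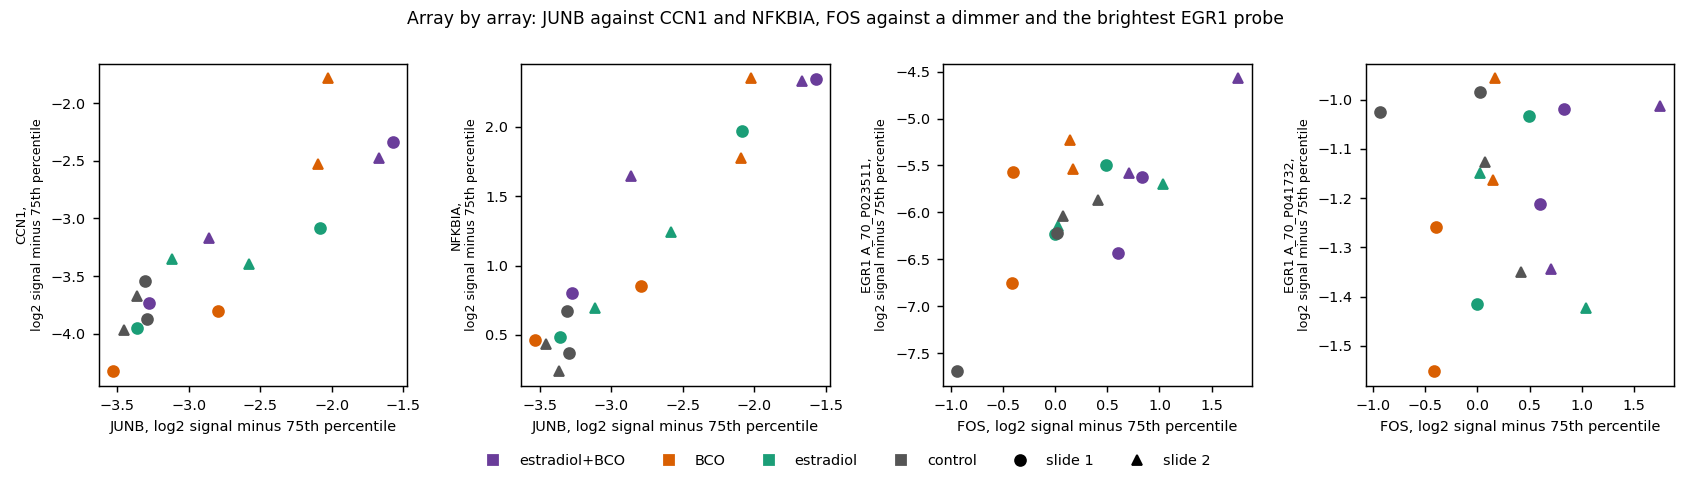
Each array as a point (colour, group; circle, slide 1; triangle, slide 2), in log2 signal relative to its 75th percentile: JUNB against CCN1 and against NFKBIA, and FOS against the dimmer EGR1 probe A_70_P023511 and the brightest EGR1 probe A_70_P041732. With group means removed r is 0.87, 0.94, 0.84 and 0.10 in the 4 panels.

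Among 1323 named probes of other genes, those whose levels over the 16 arrays were most like JUNB were NFKBIA (r = 0.95), ICAM1 (0.93), CXCL8 (0.92 and 0.88 on 2 probes) and IL1A (0.85). NFKBIA encodes the inhibitor that NF-kappa B induces to end its own activity, ICAM1 is an endothelial adhesion molecule, CXCL8 a neutrophil chemokine and IL1A a cytokine. With group means removed r was 0.94, 0.90, 0.90, 0.84 and 0.77. Each of these 5 probes had its 5 highest arrays in common with JUNB. They were chosen for their likeness, so no test is attached.

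NFKBIA stood at 0.80, 2.34, 2.33 and 1.65 in estradiol+BCO fetuses and at 0.46, 0.85, 2.35 and 1.78 in BCO fetuses. It stood at 1.97, 0.49, 1.24 and 0.69 in estradiol fetuses and at 0.37, 0.67, 0.43 and 0.24 in controls. The pattern is that of JUNB, tight in controls and with 1 or more fetuses of each other group near the controls. Occluded fetuses were higher by 0.81 ± 0.31 when averaged over estradiol, which did not pass (adjusted p = 0.569). CXCL8 had a wider spread still, from -6.15 to -0.26 within the BCO group and from -5.24 to -4.48 within controls on its brighter probe.

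The probes most like FOS were PER1 (r = 0.74), ATXN2L (0.69), PPCS (0.64), FLT1 (0.63) and AQP4 (0.62). PER1 is a clock gene that is itself induced early by cAMP and calcium signals. Its r with FOS was 0.77 with group means removed, and it stood at -7.21, -6.61, -7.03 and -6.05 in estradiol+BCO fetuses, at -8.15, -7.29, -6.72 and -6.64 in BCO fetuses, at -7.13, -7.43, -6.99 and -6.76 in estradiol fetuses and at -8.73, -6.57, -6.85 and -6.92 in controls. For ATXN2L r dropped to 0.42 with group means removed. PER1 was about as dim as EGR1 A_70_P041731 (mean -7.01, well above background on 10 of 16 arrays). Control replicate 1 was the lowest array for FOS, PER1, ATXN2L, PPCS and FLT1. The same array was lowest for EGR1 A_70_P023511 (-7.69) and for the brighter MCL1 probe (-1.78). It also had the lowest share of probes well above background (77.27%). The part of dim signal or of this array in these likenesses was not tested.

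Of 71 other immediate early and activity-dependent genes listed, 14 had a tested probe, and 0 of them passed in any of the 6 comparisons by limma. In BCO against control 8 were higher and 6 lower (median 0.04), where 51.9% of all probes were higher, and 2 had an unadjusted p under 0.05, where 7.17% of all did. In estradiol+BCO against estradiol 9 were higher and 5 lower (median 0.09), where 48.4% of all probes were higher, and 2 had an unadjusted p under 0.05, where 7.73% of all did. For occlusion averaged over estradiol the lowest p belonged to CREM, whose early product represses cAMP-driven transcription, at 0.30 ± 0.10 (adjusted p = 0.515). IL6, a cytokine, was at -0.37 ± 0.13 (adjusted p = 0.543), NFKBIA as above, and BTG1, an antiproliferative gene, at -0.29 ± 0.19 (adjusted p = 0.766).

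CREM stood at -3.36, -3.90, -3.65 and -3.42 in estradiol+BCO fetuses, against -3.92, -3.90, -4.08 and -3.84 in estradiol fetuses. It stood at -3.99, -3.66, -3.55 and -3.76 in BCO fetuses, against -4.23, -3.89, -4.06 and -3.79 in controls. The occluded and sham ranges overlap in both pairs. Of 29 upstream signalling genes 4 had a tested probe, and of 29 partners and relatives of the members 8 did, and 0 passed in either list in any of the 6 comparisons. PRKACA, a catalytic subunit of the cAMP-dependent kinase, was at 0.24 ± 0.14 for occlusion averaged over estradiol (adjusted p = 0.734).

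Markers of cell types and of neighbouring tissue were set beside these values. Of the 13 neuropeptide genes 12 had a lower mean in BCO than in control (median log2 fold change -1.70), where 51.9% of all probes had a higher one. By limma 10 of the 13 had an unadjusted p under 0.05, where 7.17% of all probes did, and none passed the adjusted threshold. In estradiol+BCO against BCO 11 of the 13 had a higher mean (median 1.23), where 46.5% of all probes did. There 6 of the 13 had an unadjusted p under 0.05 by limma, where 9.45% of all probes did, and none passed. Their summed signal, as a multiple of the 75th percentile, was 7.43 to 16.9 in BCO and 23.0 to 38.2 in control. It was 21.5 to 38.1 in estradiol+BCO and 17.7 to 50.2 in estradiol. The summed signal of 3 microglia and leukocyte markers of 9 was 0.179 to 0.301 in estradiol+BCO, 0.180 to 0.208 in BCO, 0.209 to 0.221 in estradiol and 0.171 to 0.233 in control. That of 5 endothelial and mural markers was 0.875 to 1.24, 1.18 to 1.52, 0.889 to 1.42 and 0.929 to 1.34 in estradiol+BCO, BCO, estradiol and control. That of 6 astrocyte markers was 49.3 to 70.4 in estradiol+BCO, 41.0 to 55.4 in BCO, 60.2 to 72.6 in estradiol and 45.6 to 64.9 in control. AQP4 made up most of this sum (mean log2 level 5.72 in estradiol+BCO and 5.15 in BCO), and the markers taken singly went otherwise. In BCO against control 4 of the 6 had a higher mean and 2 a lower one (median 0.20). In estradiol+BCO against BCO 1 was higher and 5 were lower (median -0.32). The summed signal of 5 fibroblast and meningeal markers lay between 2.63 and 6.04 over all arrays, and that of 5 pituitary markers between 4.55 and 19.0. All 5 fibroblast and meningeal markers had a lower mean in estradiol+BCO than in BCO (median -0.39) and than in estradiol (median -0.45). All 5 were higher in estradiol than in control (median 0.22), while in BCO against control 2 were higher and 3 lower. All 5 pituitary markers had a lower mean in BCO than in control (median -1.55), and 2 of them had an unadjusted p under 0.05 by limma. POMC is on both the pituitary and the neuropeptide list, so these lists are not fully separate. The single blood marker with a probe spanned 3.24 to 36.8 over all arrays. The part of any of these in the values of FOS, JUNB or MCL1 was not tested.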

How the data were processed

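Total RNA (500 ng) from each hypothalamus was labelled with Cy3 by the authors and hybridised to a single-colour Agilent ovine array, per the labels' protocols; RNA integrity numbers were 7.4 to 8.4. Feature Extraction 10.1.1.1 made the deposited processed signal, a background-subtracted intensity in arbitrary units, per the file headers. The authors also deposited a table of log2 values, which matches the scanner signals after centring every array on its median. Their statistical test is not given in the sources used here.

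From the scanner files, flagged outlier spots were set to missing, log2 signals were scaled to the 75th percentile of each array, repeated spots were averaged, and the 12937 of 15008 probes well above background on at least 4 arrays were tested with limma 3.58.1 in R 4.3.3 (4 group means, 16 arrays, 2-sided, Benjamini-Hochberg over all probes of a comparison, called under 0.05). The fit and the correlation test were tested on simulated data. Probes were named from the files and a sheep gene table (assembly ARS-UI_Ramb_v3.0, names only); 13404 stayed unnamed and 8 with conflicting names were left out. Both CCN1 probes, 1 RGS2 probe and 1 EGR1 probe carry another identifier as gene name and were assigned by the description in the files. Sequences are the array's own.

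All probes of the 10 genes are reported; from each wider list, genes past the threshold and up to 4 with the lowest p for occlusion averaged over estradiol were named, with the 5 probes most like FOS and like JUNB. Some genes of these lists are not reported here by name. Members and lists were chosen with earlier results of these data known. Correlations used 100000 permutations within groups. Alternatives covered scaling, background correction, filters, slide, replicate number, moderation and leaving out each array. Groups and slides were read from the labels and files. The number of arrays limits the precision.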

Additional observations from a re-analysis of the deposited data

Results flagged for a closer look

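Within the groups of 4, a single array stood apart from the rest in 3 of the 88 sets of probe values examined (Dixon's gap ratio above 0.829, which chance alone exceeds in about 1 set in 20). The control fetus of replicate 1 had a FOS A_70_P001561 level of -7.17, the lowest of its group, where the other controls were at -5.69 to -5.66. Estradiol replicate 3 had a FOS A_70_P016317 level of -2.99, the highest of its group, where the others were at -4.09 to -3.99. BCO replicate 1 had a ZFP36 A_70_P030387 level of -0.84, the lowest of its group, where the others were at -0.27 to -0.21.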

How the results depend on the processing

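Over 29 alternative settings no probe of the 10 genes passed the test in any comparison: of 3754 alternative values the lowest adjusted p was 0.188, 210 turned sign and 103 moved by more than 1 SE. The comparison of BCO with control had 0 probes past the threshold over the whole array, 14 with slide 2 alone, 3 with the groups compared alone and 0 to 6 when 1 array was left out (6 without BCO replicate 2). Estradiol+BCO against estradiol had 1, and 0 with median centring, slide 1 alone, slide 2 alone, the replicate block, the deposited value table or the groups compared alone, with 0 to 1 when 1 array was left out. The interaction had 1, and 0 with quantile normalization, median centring, no filter on dim probes, slide 1 alone, slide 2 alone or the value table, 3 with slide as a block or the replicate block, and 0 to 3 when 1 array was left out. Estradiol against control had 0 and 1 with slide 2 alone; estradiol+BCO against BCO had 0, 13 with slide 2 alone and 0 to 5 when 1 array was left out. With a slide alone each group has 2 arrays. Same-numbered arrays deviated together (mean r = 0.13) no more than other arrays of the same slide (0.14), so no pairing by number was seen. The labels give only the numbers, so a pairing of fetuses remains possible. The replicate block changed no call of the 10 genes. The number of genes with a higher mean in BCO than in control was 5, 8 with each gene's probes averaged, and 4 to 8 when 1 array was left out. The r of JUNB with CCN1 was 0.87, 0.98 within slide 1, 0.64 within slide 2, and 0.82 to 0.91 when 1 array was left out. EGR1 A_70_P041731, ZFP36 A_70_P030386 and the dimmer MCL1 probe were near background on many arrays, which limits their fold changes.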
